A study of Mus musculus with 156 samples.

Results

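Shf and Duox1 lie tail to tail on mouse chromosome 2, and both were more abundant after the long noncoding RNA Firre was induced in embryonic stem (ES) cells. The genes described here are this pair and the 5 genes beside it, Duox2, Duoxa1, Duoxa2, Sord and Slc28a2, that is 7 of the 40914 genes measured. Shf and Duox1 were picked because their levels responded to the Firre transgene over the long time course, so their values in those comparisons are given as a description with no test. The other 5 were picked by position. RNA was measured by poly(A) RNA-seq in 156 libraries of 4 ES cell lines.

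The KO transgene line had the genotype Firre KO with an inducible Firre transgene, and its KO control had the genotype Firre KO without one. The WT transgene line carried the inducible Firre transgene in a wild-type background, and its WT control was wild type. The long course had 3 replicates of each line at 0, 720, 1440, 2880 and 5760 min after doxycycline, and the short course had 2 replicates of each line every 30 min between 0 and 330 min. All 4 lines received doxycycline, the drug that switches the transgene on, so time in culture and the drug itself are shared by transgene lines and controls. Cells grew on gelatin in serum with LIF and with CHIR99021 and PD0325901, which inhibit GSK3 and MEK. The promoter of the transgene, and whether a line was 1 clone, are not given in the sources used here.

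Duox1 and Duox2 encode dual oxidases, membrane enzymes of the NADPH oxidase family that release hydrogen peroxide. Each needs a maturation factor, DUOXA1 or DUOXA2, to leave the endoplasmic reticulum, and each oxidase gene is paired head to head with the gene of its factor. DUOX2 is known for supplying hydrogen peroxide for thyroid hormone synthesis, and DUOX1 is known from thyroid and airway epithelium. Shf encodes an SH2-domain adaptor of the SHB family, described as binding activated PDGF receptors. Sord encodes sorbitol dehydrogenase, which turns sorbitol into fructose, and Slc28a2 encodes a sodium-coupled nucleoside transporter. Firre itself is a nuclear RNA made from the X chromosome.

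In GENCODE M21 (mm10) the 7 genes span 226389 bases of chromosome 2. From left to right they are Sord (122234749 to 122265340, plus strand), Duox2 (122279247 to 122298449, minus), Duoxa2 (122298900 to 122302885, plus), Duoxa1 (122302191 to 122313730, minus), Duox1 (122315672 to 122347972, plus), Shf (122348892 to 122369162, minus) and Slc28a2 (122426477 to 122461137, plus). Duox1 and Shf converge and their annotated ends are 919 bases apart, with no shared exon. Duoxa1 and Duox1 diverge from start sites 1941 bases apart, and Duox2 and Duoxa2 from start sites 450 bases apart. Duoxa1 and Duoxa2 overlap on opposite strands and share 682 exonic bases. The library kit does not mark strand, so reads in that overlap, or reads that run past the end of Shf or Duox1, cannot be given to a strand.

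The windows around the start sites of the 4 genes the results turn on are shown so that the pair can be compared with its neighbours. They run from 250 bases before to 50 bases after the start site in RefSeq (GRCm38.p6), and entries were found for all 7 genes, with a second window for Shf. Capitals mark matches to the GC box GGGCGG on either strand.
Shf (chr2:122369098-122369397, minus strand): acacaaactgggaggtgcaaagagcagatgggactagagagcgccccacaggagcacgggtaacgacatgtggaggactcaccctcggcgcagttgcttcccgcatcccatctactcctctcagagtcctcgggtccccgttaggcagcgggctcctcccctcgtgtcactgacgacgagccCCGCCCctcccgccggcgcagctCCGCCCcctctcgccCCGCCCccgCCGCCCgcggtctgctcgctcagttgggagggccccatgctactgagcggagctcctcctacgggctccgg
Duox1 (chr2:122315422-122315721, plus strand): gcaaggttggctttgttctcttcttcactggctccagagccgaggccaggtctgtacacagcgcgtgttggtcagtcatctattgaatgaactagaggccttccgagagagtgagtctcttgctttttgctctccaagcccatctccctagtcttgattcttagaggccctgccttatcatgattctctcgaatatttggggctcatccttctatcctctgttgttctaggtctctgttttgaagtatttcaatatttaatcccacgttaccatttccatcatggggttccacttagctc
Duoxa1 (chr2:122313681-122313980, minus strand): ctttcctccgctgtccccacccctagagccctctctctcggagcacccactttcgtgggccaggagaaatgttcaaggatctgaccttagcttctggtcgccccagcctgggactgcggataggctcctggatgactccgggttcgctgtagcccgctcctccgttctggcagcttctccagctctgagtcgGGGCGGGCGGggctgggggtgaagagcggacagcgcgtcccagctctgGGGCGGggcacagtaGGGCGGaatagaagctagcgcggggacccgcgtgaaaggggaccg
Sord (chr2:122234589-122234888, plus strand): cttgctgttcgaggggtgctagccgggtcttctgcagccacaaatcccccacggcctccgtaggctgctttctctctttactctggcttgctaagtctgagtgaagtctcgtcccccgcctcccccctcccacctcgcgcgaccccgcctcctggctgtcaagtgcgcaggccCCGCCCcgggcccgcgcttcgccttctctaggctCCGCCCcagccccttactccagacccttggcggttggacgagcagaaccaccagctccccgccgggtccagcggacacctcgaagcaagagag
The Shf window holds 68.7% G or C and 4 GC boxes, the Duoxa1 window 65.7% and 4 GC boxes, some of them overlapping, and the Sord window 66.7% and 2. The Duox1 window holds 46.7% G or C and has no match on either strand to the GC box GGGCGG, the CCAAT box, the TATA box TATAAA, the E-box CACGTG or the AP-1 motif TGACTCA. Of 32851 windows of the same length, 35.7% held the GC box, 37.4% the CCAAT box, 13.6% the TATA box, 7.15% the E-box and 5.2% the AP-1 motif. A match describes these letters and is not a binding site.

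Total counts per library were 18961799 to 47948630 in the long course and 19013652 to 37195019 in the short course. Firre followed the labels: after 0 min it was at 24.8 to 50.8 TPM (transcript abundance corrected for transcript length and library depth) in the KO transgene line of the long course and at 0.391 to 1.07 TPM in the KO control. Before doxycycline the WT transgene line held more Firre than its control in TPM. In the long course it was at 45.8 to 46.8 TPM, against 23.6 to 24.7 TPM in the WT control. In the short course it was at 45.5 and 41.4 TPM, against 22.9 and 30.2 TPM in the WT control. The gap was smaller or absent in CPM (counts scaled to the library total), which does not correct for transcript length. Pooled over 0 min libraries of the long course, Firre was at 73.9 CPM, against 60.4 CPM in the WT control. For the short course Firre was at 64.0 CPM in the WT transgene line and 64.6 CPM in the WT control. After 0 min of the long course it was at 62.8 to 121 TPM in the WT transgene line and at 21.3 to 31.3 TPM in the WT control, and its change since 0 min, less that of the WT control, did not pass at 5760 min (0.17 ± 0.06 on the log2 scale, edgeR adjusted p = 0.071). All 10 ES cell markers had a median of at least 1 TPM, with Pou5f1 at 791 to 1250 TPM. None of 7 thyroid markers did, and they summed to at most 2.57 TPM in a library. Such a median was reached by 5 of 9 trophoblast markers and 3 of 10 airway and barrier epithelium markers. It was also reached by 3 of 8 primitive endoderm markers and 1 of 8 fibroblast or feeder markers. The levels of the 7 genes differed widely. Shf averaged 21.5 TPM over all libraries, Sord 11.5 TPM and Duox1 0.483 TPM. Duox2, Duoxa1, Duoxa2 and Slc28a2 had 323, 310, 378 and 35 counts over the 156 libraries together, and had no count in 32, 72, 24 and 128 libraries. In bulk RNA, more cells with a transcript and more transcript per cell cannot be told apart.

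In the short course, which was not the course Shf and Duox1 were picked on, Shf rose with the transgene in both backgrounds. The genes were chosen with earlier results of these data known, so the short course is not an independent test of that choice. At 0 min Shf was at 5.99 and 6.72 TPM in the KO transgene line, against 7.25 and 6.56 TPM in the KO control. At 60 min it was at 9.19 and 11.4 TPM in the KO transgene line, against 10.5 and 6.72 TPM in the KO control. At 90 min it was at 16.0 and 14.4 TPM in the KO transgene line, against 7.05 and 8.53 TPM in the KO control. The lines thus overlapped at 60 min and no longer at 90 min. By 330 min Shf had reached 40.8 and 32.8 TPM in the KO transgene line, against 8.24 and 9.85 TPM in the KO control, and the KO control had a median of 8.49 TPM over all 22 libraries after 0 min. From 90 min on, all 18 libraries of the KO transgene line lay above every library of the KO control.

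The same course was seen in the WT background. At 0 min Shf was at 9.30 and 7.86 TPM in the WT transgene line, against 9.29 and 8.82 TPM in the WT control. At 90 min it was at 19.2 and 17.3 TPM in the WT transgene line, against 7.58 and 10.1 TPM in the WT control. At 330 min it was at 44.4 and 46.8 TPM in the WT transgene line, against 7.70 and 7.03 TPM in the WT control. From 60 min on, both WT transgene libraries of each time lay above all WT control libraries, whose highest was 10.7 TPM.

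A response subtracts a control's log2 change since 0 min from that of its transgene line, and is called rescue in the KO and overexpression in the WT background. Averaged over the 11 times after 0 min, the Shf rescue was 1.44 ± 0.15 (SE, n = 2 per group; edgeR adjusted p = 1.37e-23, higher in 21 of 22 libraries). The Shf overexpression response was 1.71 ± 0.13 (edgeR adjusted p = 1.52e-30, higher in 22 of 22 libraries). The difference between them, -0.27 ± 0.20, did not pass (edgeR adjusted p = 0.478). Over all genes 1.82% passed in the rescue and 0.7% in the overexpression of the short course. Time by time, Shf first passed at 90 min in both backgrounds, at 1.96-fold in the rescue (edgeR adjusted p = 0.0228) and 2.07-fold in the overexpression (edgeR adjusted p = 8.91e-04). It passed at every later time, 9 of 11 in each background, and at those times 0.0111% to 4.08% of all genes passed in the rescue and 0.0167% to 0.2% in the overexpression. At 30 and 60 min, where Shf did not pass, 0.0111% and 0.00555% of genes passed in the rescue and 0.00555% and 0.0111% in the overexpression. At 180 min Shf was at 24.9 and 23.8 TPM in the KO transgene line, below both libraries of 150 min, and at that time 735 genes (4.08%) passed in the rescue, against 5 genes at 150 min and 30 genes at 210 min. At 90 min 2 genes of 18009 passed in the rescue and 3 in the overexpression, or 0.0111% and 0.0167%.

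**Figure D1:**
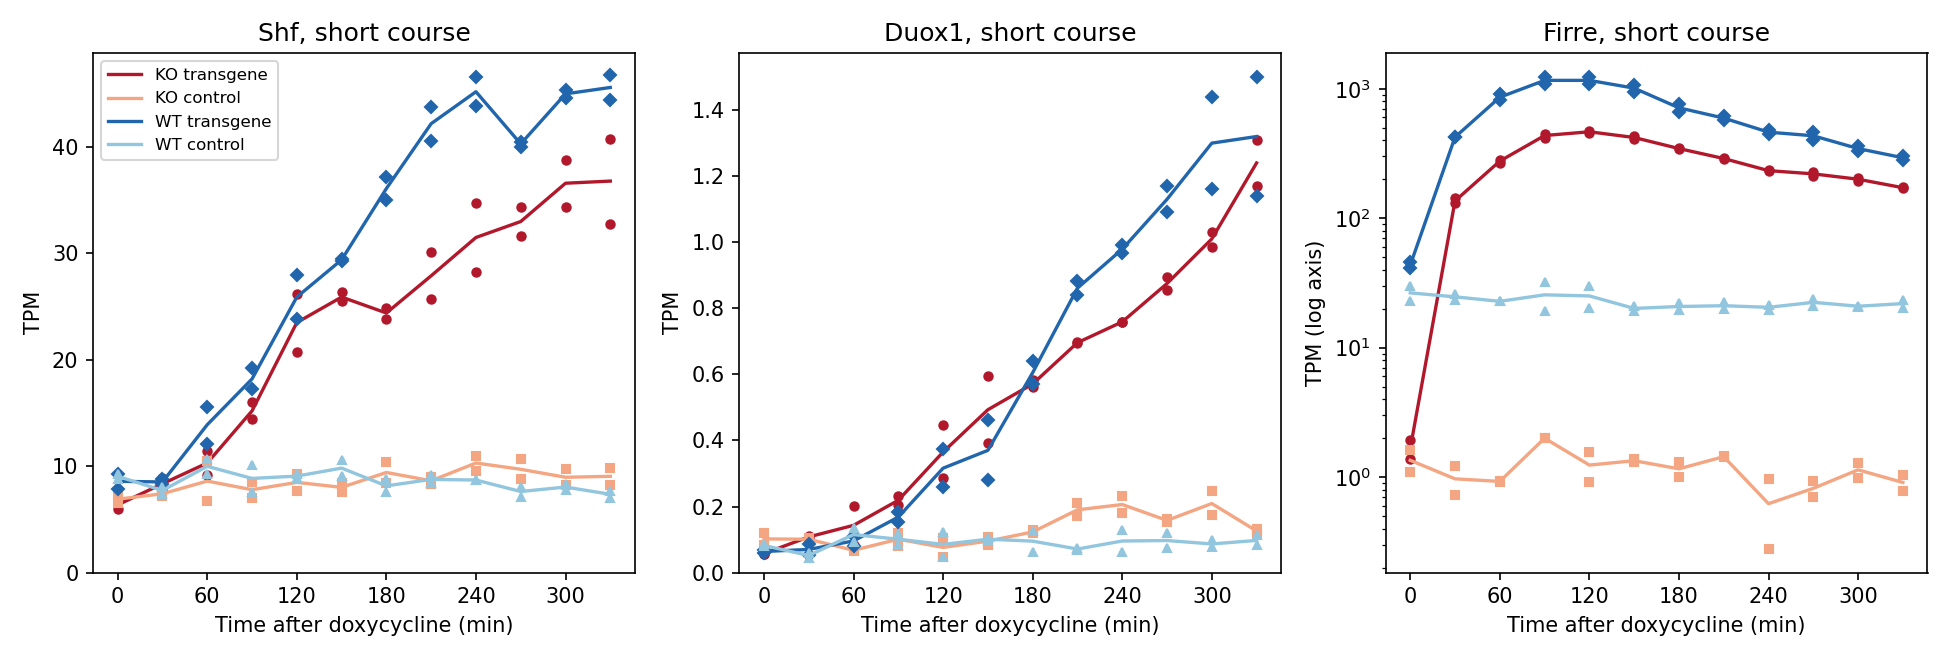
Level of Shf, Duox1 and Firre (TPM; log axis for Firre) by time after doxycycline in the 4 lines of the short course. Points are libraries (2 per line and time) and lines join means; Shf in the transgene lines lies above all libraries of its own control by 90 min, and Duox1 climbs until 330 min.

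Duox1 also rose in both backgrounds, and from a level close to none. At 0 min Duox1 was at 0.0577 and 0.0573 TPM in the KO transgene line (7 and 6 counts), against 0.0846 and 0.119 TPM in the KO control. At 120 min it was at 0.285 and 0.446 TPM in the KO transgene line, against 0.106 and 0.0465 TPM in the KO control. At 330 min it was at 1.31 and 1.17 TPM in the KO transgene line, against 0.132 and 0.121 TPM in the KO control. The KO lines did not overlap at any time from 60 min on. In the WT background Duox1 was at 0.0601 and 0.0676 TPM at 0 min in the WT transgene line, against 0.0851 and 0.0791 TPM in the WT control. At 330 min it was at 1.50 and 1.14 TPM in the WT transgene line, against 0.0820 and 0.113 TPM in the WT control. The WT lines did not overlap from 90 min on.

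The Duox1 rescue averaged 2.73 ± 0.45 on the log2 scale (edgeR adjusted p = 4.00e-13, higher in 22 of 22 libraries). The overexpression response averaged 2.63 ± 0.46 (edgeR adjusted p = 1.25e-20, higher in 21 of 22 libraries). By time, the rescue passed from 120 min on (7.84-fold, edgeR adjusted p = 0.00585), 8 of 11 times, and the overexpression from 180 min on (7.60-fold, edgeR adjusted p = 0.00153), 6 of 11 times. Of all genes, 0.0222% passed in the rescue at 120 min and 0.0278% at 150 min, and in the overexpression 0.0333% passed at 150 min, 0.117% at 180 min and 0.178% at 270 min. Leaving out a replicate of the compared lines, which left 1 library of these lines at each time, lowered the number of times that passed in both responses. The time profiles of rescue and overexpression differed for Duox1 (edgeR adjusted p = 0.00864, where 0.0167% of genes passed), although their means differed by 0.10 ± 0.62. The rescue was larger at 60 min (1.91 ± 0.58 against 0.07 ± 0.56) and smaller at 300 min (3.14 ± 0.51 against 4.21 ± 0.54). This difference did not pass when the 11 times entered one by one (edgeR adjusted p = 0.335). Without replicate 2 the mean difference was -0.36. That value is read from the fitted spline and the 0.10 from a fit of each time, so they are unlike measures.

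Which of the pair moved first depended on the measure. Both transgene libraries stayed above both control libraries of the same time from 60 min on for Duox1 and from 90 min on for Shf in the KO background, but from 90 min on for Duox1 and from 30 min on for Shf in the WT background. At 30 min Shf had not risen in the WT transgene line, with a mean of 8.52 TPM against 8.58 TPM at 0 min. The WT control was lower at that time, with a mean of 7.72 TPM against 9.05 TPM at 0 min. At 60 min the rescue was 3.75-fold for Duox1 and 1.39-fold for Shf, and neither passed. The Duox1 rescue subtracts a 0 min gap of -0.85 ± 0.44 on the log2 scale between the KO lines, which did not pass. Without the 0 min levels, the ratio of mean TPM at 60 min was 2.12 for Duox1 and 1.2 for Shf. By the share of the rise, Shf came first in both backgrounds. Both libraries of a time were first above the midpoint between the 0 and 330 min means at 150 min for Shf and at 210 min for Duox1, in each background. At 120 min Shf had covered 56.2% (KO background) and 46.8% (WT background) of its rise to 330 min. Duox1 had covered 26.1% (KO background) and 20.03% (WT background) at that time. Shf at 330 min was 5.78 times its 0 min level with the transgene on the KO background and 5.31 times on the WT one. The same ratio for Duox1 was 21.6 for the KO and 20.7 for the WT transgene line, on 13 and 20 counts at 0 min in the 2 libraries together. Firre had its highest mean at 120 min, 465 TPM in the KO and 1160 TPM in the WT transgene line, before both genes reached theirs. These shares are means of 2 libraries and their difference was not tested.

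**Figure D2:**
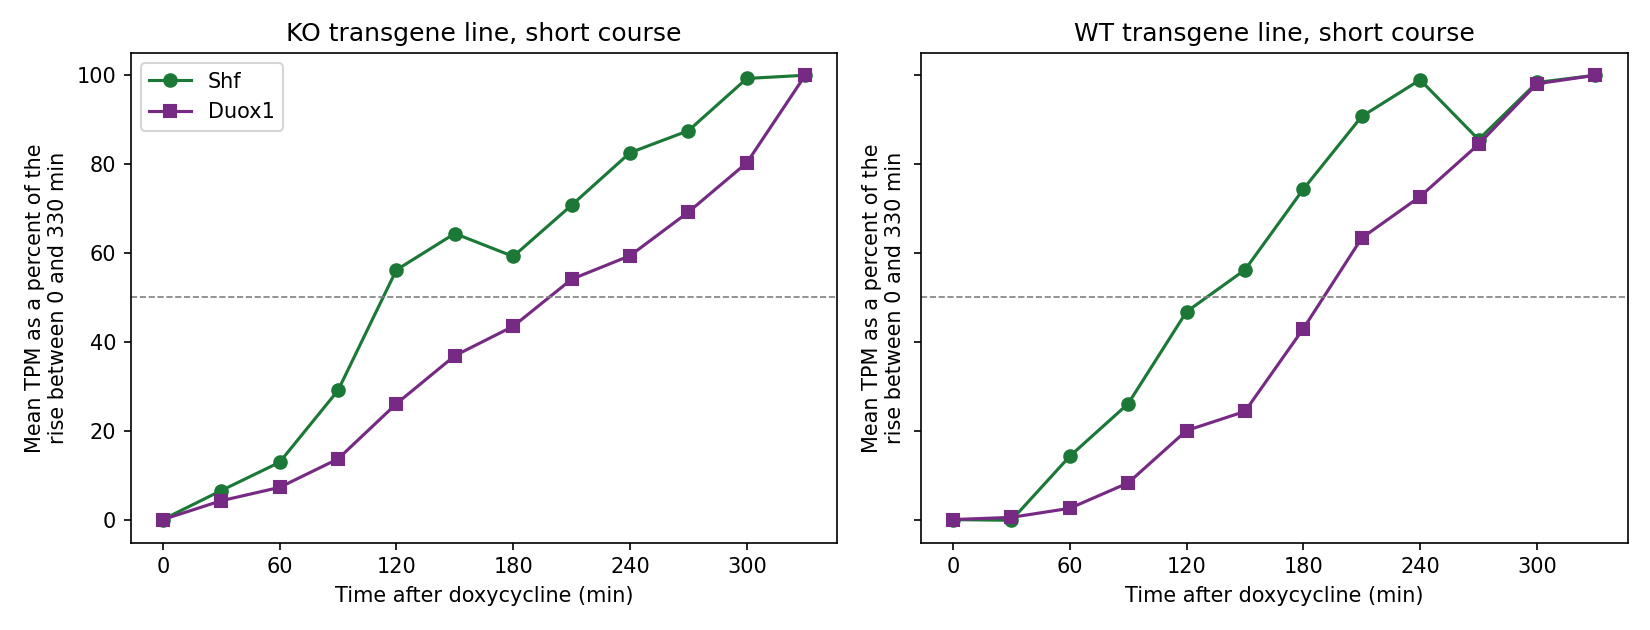
Mean TPM of Shf and Duox1 in the transgene lines of the short course as a percent of the rise between 0 and 330 min, by time after doxycycline. The dashed line marks 50%; the Duox1 curve lies below the Shf curve between 60 and 270 min in both lines.

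The long course gave the values the pair was picked on. Shf in the KO transgene line was at 12.9, 12.3 and 10.8 TPM at 0 min, then at 58.5, 47.2 and 66.1 TPM at 720 min and 49.2, 49.6 and 47.2 TPM at 5760 min. In the KO control it was at 17.3, 14.2 and 15.3 TPM at 0 min, 19.5, 20.4 and 20.7 TPM at 720 min and 10.1, 9.49 and 10.8 TPM at 5760 min. The KO lines did not overlap at any time after 0 min, where the transgene line held 38.5 to 66.1 TPM and the control 9.49 to 20.7 TPM. In the WT transgene line Shf was at 9.77, 10.3 and 8.27 TPM at 0 min, 42.1, 34.6 and 44.5 TPM at 720 min and 48.7, 46.6 and 46.7 TPM at 5760 min. In the WT control it was at 7.47, 8.92 and 9.48 TPM at 0 min, 9.81, 11.1 and 9.95 TPM at 720 min and 7.38, 9.64 and 6.67 TPM at 5760 min. After 0 min the WT transgene line held 34.6 to 62.0 TPM and the WT control 6.67 to 14.9 TPM.

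Ordered by level at 5760 min, Shf was highest in the KO transgene line, followed by the WT transgene line, the KO control and the WT control. The transgene lines overlapped with each other, at 47.2 to 49.6 TPM in the KO and 46.6 to 48.7 TPM in the WT background. Among the controls, KO reached down to 9.49 TPM and WT up to 9.64 TPM, so they overlapped too. The Shf rescue was 2.02, 1.96, 2.25 and 2.58 on the log2 scale at the 4 times, with a mean of 2.20 ± 0.08. The overexpression response was 2.15, 2.00, 2.03 and 2.57, with a mean of 2.19 ± 0.10, and it was 2.00 without replicate 3. All 12 libraries after 0 min were higher in each. The responses differed by 0.01 ± 0.13, given as a description with no test.

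Duox1 was at 0.110, 0.0716 and 0.0874 TPM at 0 min in the KO transgene line of the long course, against 0.0488 to 0.106 TPM in the KO control. After 0 min it was at 1.47, 1.70 and 1.99 TPM (lowest, median and highest of 12) in the KO transgene line, against 0.119, 0.170 and 0.247 TPM in the KO control. In the WT background the values after 0 min were 1.00, 1.43 and 2.19 TPM in the WT transgene line, against 0.0267, 0.0718 and 0.145 TPM in the WT control. Neither pair of lines overlapped after 0 min. The Duox1 rescue had a mean of 3.07 ± 0.36 and the overexpression response a mean of 4.35 ± 0.39 on the log2 scale, and the rescue was 2.62 without replicate 2. They differed by -1.28 ± 0.49, again with no test.

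Duox1 counts made up a larger share of Shf counts after 0 min in the transgene lines. Duox1 counts were 3.38% of Shf counts in the KO transgene line at 0 min and 13.3% to 16.9% at later times of the long course. In the KO control they were 2.34% of Shf counts at 0 min and 4.73% to 7.47% later. In the WT transgene line they were 3.94% at 0 min and 11.5% to 19.5% later, against 4.27% at 0 min and 2.79% to 4.90% later in the WT control. These shares are of summed counts of 3 libraries and are not corrected for the length of the genes.

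**Figure D3:**
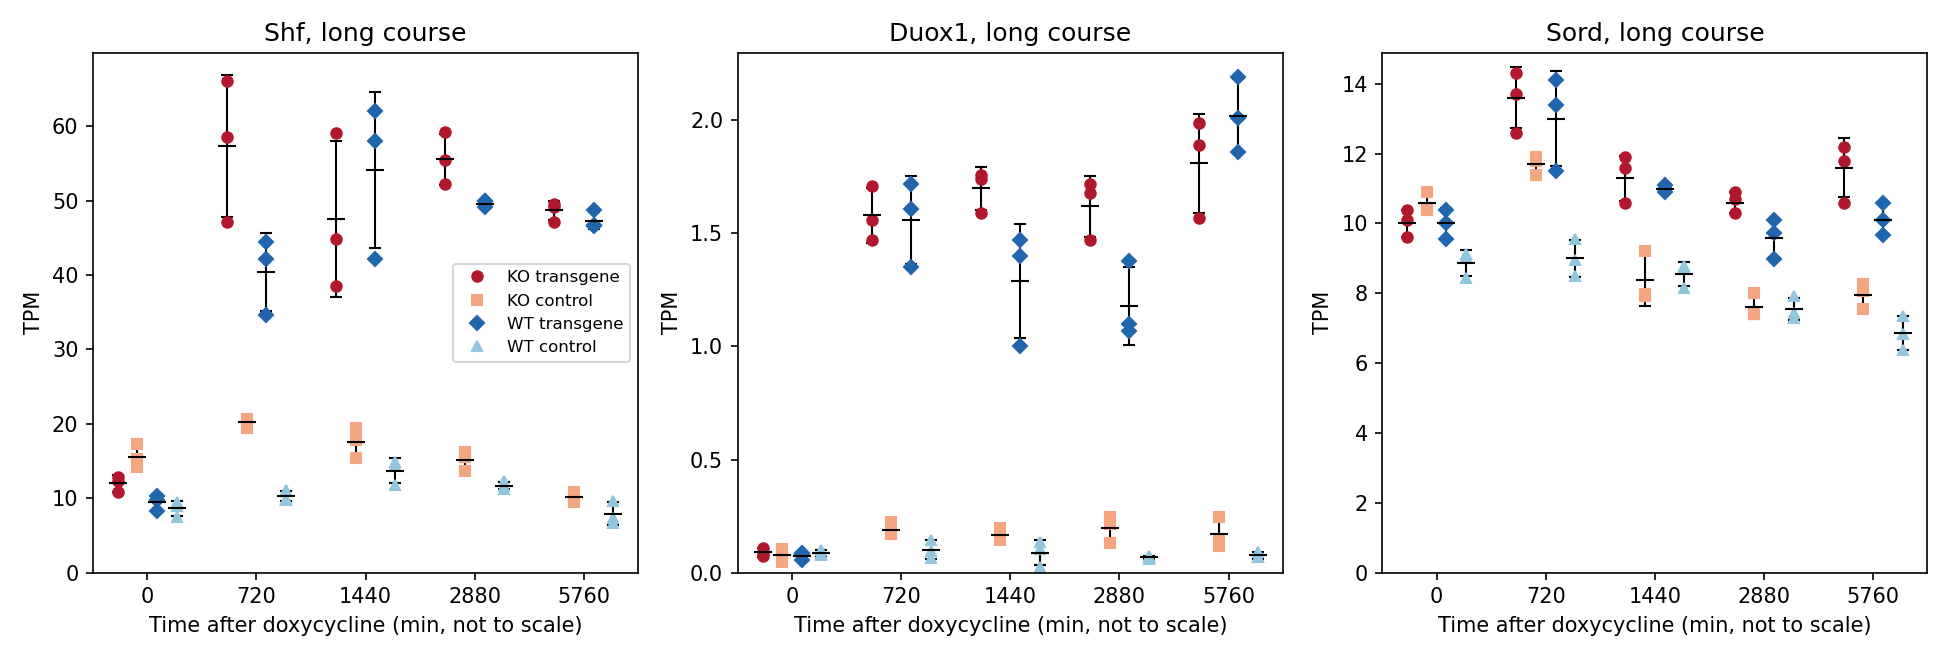
Level of Shf, Duox1 and Sord (TPM) by time after doxycycline in the 4 lines of the long course; points are libraries, bars are the mean and SD of 3. Both transgene lines lie above both controls for Shf and Duox1 after 0 min, with 38.5 to 66.1 TPM of Shf in the KO transgene line, and Sord separates by less.

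Sord, the gene at the left end, was picked by position and rose in both long-course responses. At 5760 min it was at 10.6, 12.2 and 11.8 TPM in the KO transgene line, against 8.28, 7.54 and 8.07 TPM in the KO control. It was at 9.68, 10.6 and 10.1 TPM in the WT transgene line at that time, against 6.84, 7.36 and 6.38 TPM in the WT control. At 0 min it was at 10.4, 9.60 and 10.1 TPM in the KO transgene line, against 10.9, 10.4 and 10.4 TPM in the KO control. In the WT background it was at 9.55 to 10.4 TPM at 0 min in the transgene line, against 9.05, 8.45 and 9.13 TPM in the WT control. The KO lines met at 10.4 TPM at 0 min and lay apart at 5760 min, while the WT lines did not overlap at either time. The WT transgene libraries of 0 and 5760 min overlapped with each other, while the WT control averaged 8.88 TPM at 0 min and 6.86 TPM at 5760 min.

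The Sord rescue averaged 0.51 ± 0.07 (edgeR adjusted p = 3.67e-08, higher in 12 of 12 libraries) and passed at each of the 4 times, at which 0.854%, 6.46%, 4.83% and 5.35% of all genes passed. The overexpression response averaged 0.25 ± 0.07 (edgeR adjusted p = 0.00494, higher in 12 of 12 libraries) and passed at 720 and 5760 min, where 0.581% and 8.23% of all genes passed, but not at 1440 or 2880 min, where 1.85% and 2.56% did. Without replicate 3 the overexpression response was 0.19 (edgeR adjusted p = 0.425). The rescue exceeded the overexpression response by 0.26 ± 0.10 (edgeR adjusted p = 0.00342, where 5.32% of all genes passed), but not past the threshold without replicate 2 (edgeR adjusted p = 0.0517) or replicate 3 (edgeR adjusted p = 0.255). Of all genes 11.5% passed in the long rescue and 9.79% in the long overexpression, and of the neighbours tested, Sord and Duoxa1, 1 of 2 passed in each. In the KO background of the short course Sord reached 12.2 and 13.3 TPM at 330 min in the KO transgene line, against 11.9 and 11.9 TPM in the KO control. Its rescue there was 0.07 ± 0.07 (edgeR adjusted p = 0.024, higher in 16 of 22 libraries), did not pass at any single time and was lost in 5 of the alternatives, with edgeR adjusted p of 0.0574 to 0.335. In the WT background of that course it was at 17.5 and 16.1 TPM at 330 min in the transgene line, against 10.4 and 11.7 TPM in the WT control, a gap also present at 0 min (14.4 and 13.7 TPM in the WT transgene line, 10.2 and 9.88 TPM in the WT control). The short overexpression response, which subtracts that gap, was -0.05 ± 0.07 (edgeR adjusted p = 0.53).

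The oxidase partner genes were near the floor of the measurement. Duoxa1, the maturation factor gene beside Duox1, had 1, 6.2 and 12 counts (lowest, median and highest of 12) after 0 min in the KO transgene line of the long course, against 0, 1 and 1 in the KO control. It had 1, 6 and 14 counts in the WT transgene line, against 0, 0 and 2 in the WT control. Summed over these libraries, that is 75 counts in the KO transgene line against 7 in the KO control, and 81 in the WT transgene line against 5 in the WT control. Duoxa1 entered the edgeR test only through the transgene groups, where its rescue (edgeR adjusted p = 0.383) and overexpression response (edgeR adjusted p = 0.915), which subtract 0 min levels of 0 to 2 counts, did not pass.

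The levels after 0 min alone, without the 0 min levels, are given for the 4 sparse genes in CPM (counts scaled to the library total). This comparison was chosen after the values were seen, so it is a description with no test. Duoxa1 averaged 0.212 ± 0.115 CPM in the KO transgene line and 0.0202 ± 0.0189 CPM in the KO control (SD, n = 12 each). It averaged 0.209 ± 0.109 CPM in the WT transgene line and 0.0136 ± 0.0225 CPM in the WT control (SD, n = 12 each). Duoxa1 also had 54 counts after 0 min of the short course in 22 libraries of the KO transgene line against 16 in the KO control, and 61 in the WT transgene line against 1 in the WT control.

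Duox2, the paralogue of Duox1, averaged 0.126 ± 0.0735 CPM in the KO transgene line and 0.0439 ± 0.0605 CPM in the KO control after 0 min (SD, n = 12 each). In the WT background it averaged 0.0895 ± 0.0876 CPM in the transgene line and 0.0527 ± 0.0508 CPM in the control. Duox2 had 46 counts beside 2767 Duox1 counts in those 12 KO transgene libraries. How reads that match both paralogues were divided is not given in the sources used here, and the part of such reads in the Duox2 value was not tested. Duoxa2 averaged 0.0735 ± 0.0506 CPM in the KO transgene line and 0.0437 ± 0.0287 CPM in the KO control. The Duoxa2 values in the WT background were 0.0493 ± 0.0436 CPM in the transgene line and 0.0401 ± 0.0607 CPM in the control. Over the short course Duoxa2 had 84 counts after 0 min in the KO transgene line against 46 in the KO control, and 68 in the WT transgene line against 60 in the WT control. At 0 min of that course it had 6 counts in the KO transgene line against 4 in the KO control (0.117 and 0.0702 CPM). In the WT background it had 10 in the transgene line against 9 in the control at 0 min. Slc28a2 was close to undetected: it had 4 counts in the KO transgene line against 2 in the KO control, and 0 in the WT transgene line against 6 in the WT control, after 0 min of the long course.

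**Figure D4:**
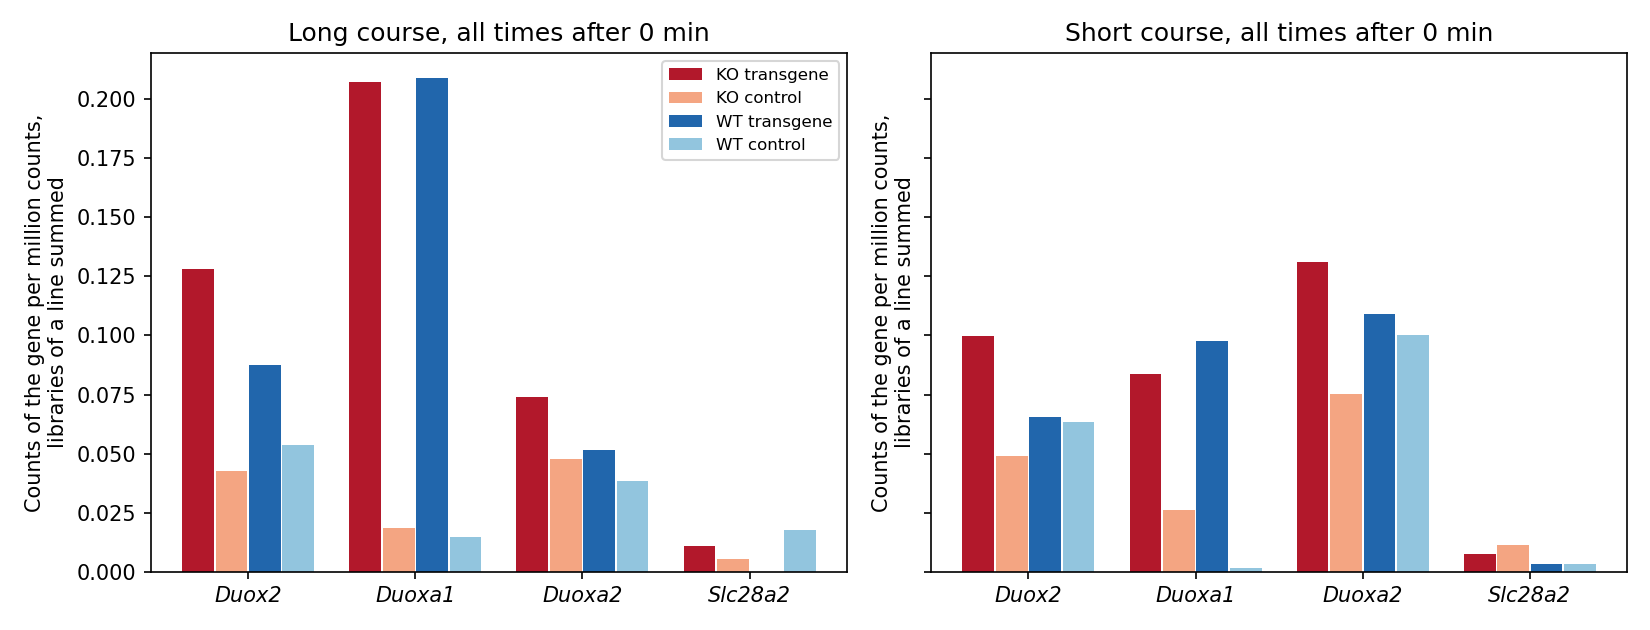
CPM of the 4 sparse genes, summed over all libraries of a line after 0 min (12 libraries per line in the long and 22 in the short course). Duoxa1 stands at 0.207 CPM in the KO transgene line and 0.0186 CPM in the KO control of the long course. In the short course the KO lines differ by a like amount for Duoxa1 (0.0839 and 0.0262 CPM) and Duoxa2 (0.131 and 0.0754 CPM). Duoxa2 was already at 0.117 and 0.0702 CPM in these lines at 0 min, which is not drawn.

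The KO and WT controls, which differ in Firre itself, differed for some of the 7 genes before doxycycline. Each genotype is a single line in this comparison, so Firre and other differences between the lines cannot be told apart. In the long course Shf at 0 min was higher in the KO control than in the WT control (14.2 to 17.3 TPM in the KO control, 7.47 to 9.48 TPM in the WT control). That was 0.76 ± 0.08 on the log2 scale (edgeR adjusted p = 1.40e-12), at a time when 35.1% of genes differed. The same comparison in the short course gave -0.33 ± 0.13 (edgeR adjusted p = 0.129; 7.51% of genes differed), with 7.25 and 6.56 TPM in the KO control and 9.29 and 8.82 TPM in the WT control. Sord was higher in the KO control at 0 min in both courses, by 0.25 ± 0.06 (edgeR adjusted p = 5.50e-04) and 0.28 ± 0.07 (edgeR adjusted p = 0.00652). Duox1 did not pass at 0 min in either course (edgeR adjusted p = 0.821 and 0.633).

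Over all times together, 3 of 4 tested genes passed between the controls in the long course, where 52.2% of all genes did, and 3 of 3 in the short course, where 45.7% did. Duox1 was higher in the KO control by 0.84 ± 0.14 (edgeR adjusted p = 3.99e-07) in the long and by 0.51 ± 0.11 (edgeR adjusted p = 1.74e-04) in the short course, where the adjusted p was 0.0772 without replicate 1. Shf was higher in the KO control by 0.49 ± 0.04 (edgeR adjusted p = 1.84e-18) in the long and by 0.09 ± 0.04 (edgeR adjusted p = 0.0487) in the short course. That short-course value fell to 0.00 without replicate 2 (edgeR adjusted p = 0.988). Sord was higher by 0.13 ± 0.03 (edgeR adjusted p = 9.35e-05) in the long course and by 0.11 ± 0.02 (edgeR adjusted p = 3.51e-06) in the short course.

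Duox1 also moved within the KO control. It was at 0.119 to 0.247 TPM after 0 min of the long course in that line, against 0.0488 to 0.106 TPM at 0 min, a change of 1.10 ± 0.23 (edgeR adjusted p = 5.15e-04). The long-course changes of the controls are part of the responses on which Shf and Duox1 were picked, so their p-values are not free of that choice. In the short course Duox1 was at 0.173 and 0.246 TPM at 300 min in the KO control, against 0.0846 and 0.119 TPM at 0 min. Its profile changed with time there (mean 0.25 ± 0.28, edgeR adjusted p = 4.35e-06). Without replicate 1 the mean was -0.20, but that value is read from the fitted spline and the 0.25 from a fit of each time. In the WT control the change did not pass in the long course (-0.10 ± 0.27, edgeR adjusted p = 0.946) or the short course (0.14 ± 0.31, edgeR adjusted p = 0.822). Whether the changes of the controls differ was not tested. Shf changed in both controls of the long course, by -0.18 ± 0.06 in KO (edgeR adjusted p = 2.52e-07) and by 0.15 ± 0.07 in WT (edgeR adjusted p = 3.04e-09), where 59.6% and 54.8% of genes changed with time. Shf also changed in the KO control of the short course (0.37 ± 0.10, edgeR adjusted p = 0.0193), so that 2 of 3 tested genes passed there beside 13.3% of all genes, and this did not pass without either replicate. The Shf change in the WT control was -0.08 ± 0.10 (edgeR adjusted p = 0.124), where 21.8% of genes passed. In the long course Sord fell by 0.24 on the log2 scale in the KO control (edgeR adjusted p = 1.91e-11) and by 0.09 in the WT control (edgeR adjusted p = 0.00229).

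The transgene lines were close to their controls before induction, with exceptions. At 0 min of the long course the KO transgene line had less Shf than the KO control (-0.34 ± 0.07 on the log2 scale, edgeR adjusted p = 0.00205, 0.0639 without replicate 2), where 3.54% of genes differed. The 0 min levels are part of the response on which Shf was picked, so this p is not free of that choice. In the WT background Sord was higher in the transgene line at 0 min of the short course, where the lines did not overlap (0.53 ± 0.07, edgeR adjusted p = 9.37e-08; 2.93% of genes differed). In the long course that difference was 0.19 ± 0.06 (edgeR adjusted p = 0.031) and did not pass in 6 of the alternatives, and 13.2% of genes differed. Duox1 did not pass in any of these 4 comparisons.

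Of the 36 genes annotated within 500 kb of their span, the 7 included, 23 others were in the tables, and 12 were tested in the long and 13 in the short course. In the long rescue AA467197 (0.48 ± 0.13, edgeR adjusted p = 0.00127) and the zinc transporter gene Slc30a4 (0.26 ± 0.07, edgeR adjusted p = 0.00518) rose and Patl2 fell (-0.30 ± 0.12, edgeR adjusted p = 0.0437), with 5.57% of all genes passing upward and 5.95% downward. In the long overexpression AA467197 (0.38) and Slc30a4 (0.30) passed with a positive mean and Casc4 (-0.07) with a negative one. Patl2 (-0.10 ± 0.11) and B2m, the light chain of MHC class I (0.01 ± 0.08), passed on their time profile with means within 1 SE of 0. These 5 genes passed with edgeR adjusted p of 5.24e-04 to 0.00571 and with 4.24% of all genes passing upward and 5.56% downward. Ctdspl2 passed in the short rescue (0.11 ± 0.06, edgeR adjusted p = 2.89e-04), and in the short overexpression the 13 neighbours had edgeR adjusted p of 0.627 to 1. The median over the neighbours tested was 0.10 in the long rescue and 0.03 in the long overexpression, against -0.01 and 0.00 over all genes.

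**Figure D5:**
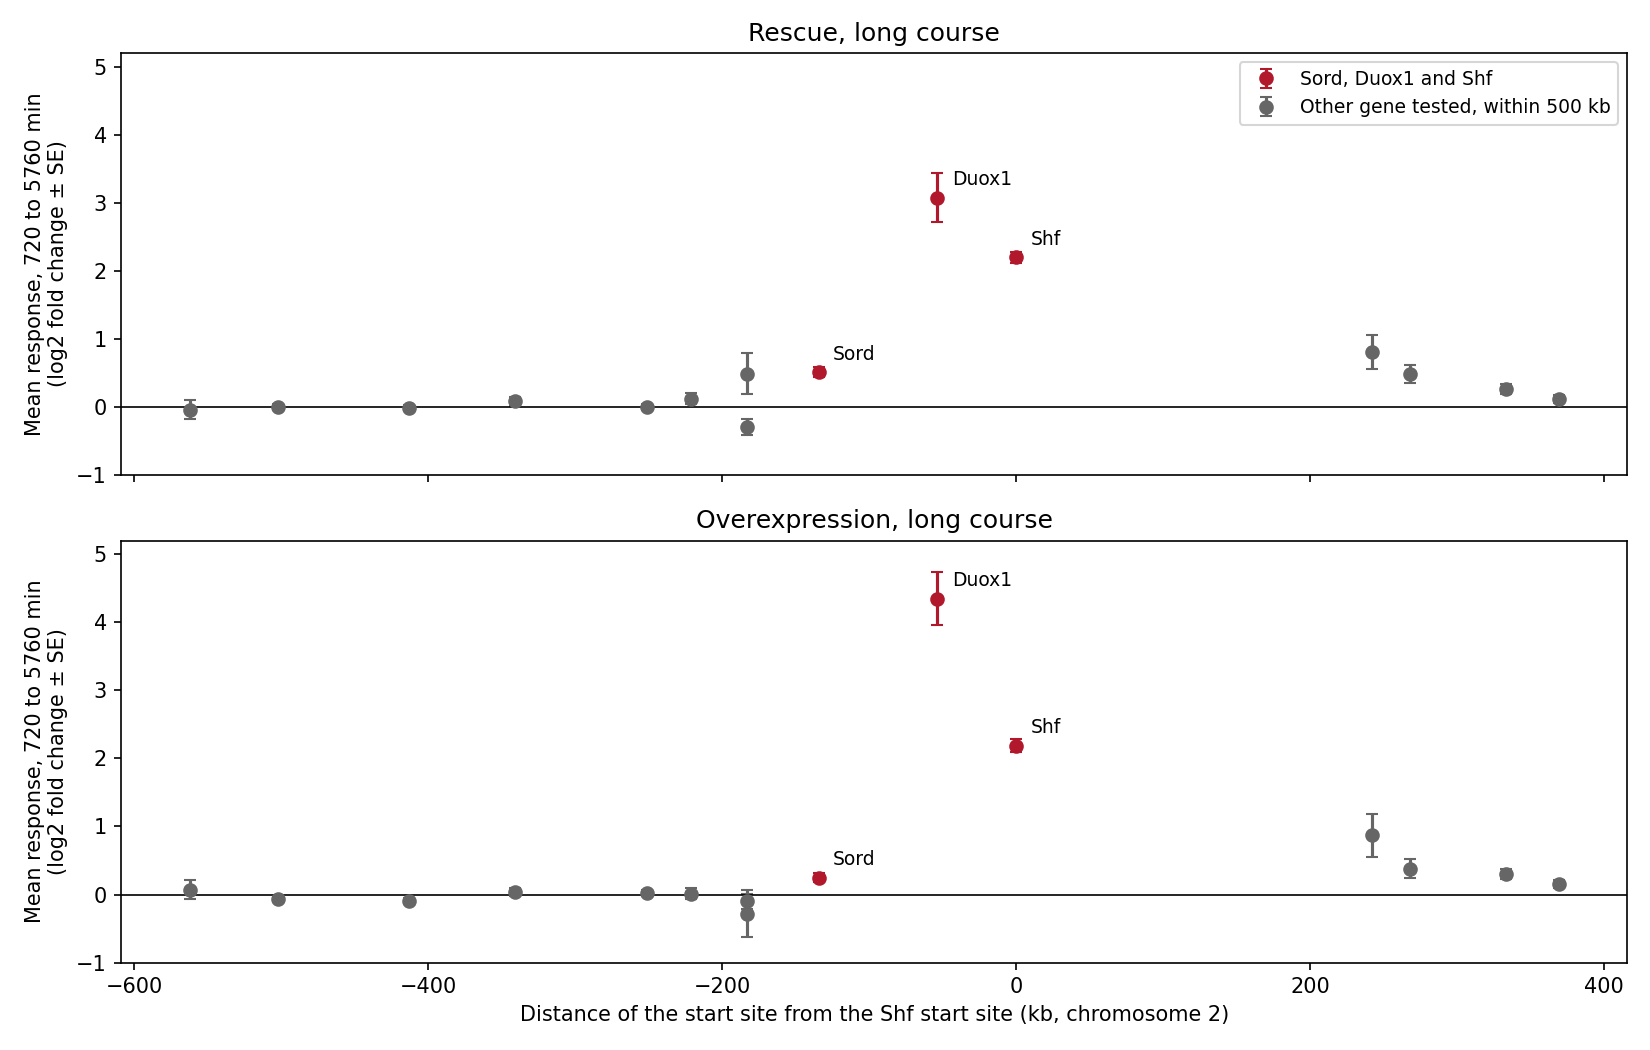
Mean log2 response over 720 to 5760 min of the long course for genes within 500 kb of the 7-gene span, by distance of their start site from that of Shf on chromosome 2 (kb); bars are the SE. Shf and Duox1, which were picked on these values, stand at 2.19 to 4.35, Sord at 0.25 to 0.51, and the other genes between -0.30 and 0.87; Duoxa1, with few counts, is not drawn.

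Genes with the most similar profile to Shf, by Pearson's r of the mean log2 CPM over the 20 groups of the long course, the 7 genes and provisional symbols aside, were Nceh1 (0.982), Impdh1 (0.975), Rapgef4 (0.972), Dpf2 (0.968) and Josd2 (0.955), and Duox1 had 0.965. For Duox1 they were Rapgef4 (0.990), Apod (0.988), Adgrg1 (0.984), Dpf2 (0.984) and Nceh1 (0.977). Over the 48 groups of the short course the r with Shf was 0.950 for Duox1 and 0.687 for Sord. The groups share libraries and controls, so these values carry no p. Firre itself had 0.327 with Shf in the long and 0.653 in the short course.

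Genes of related function elsewhere in the genome were counted in the long course, beside 11.5% of all genes passing in the rescue and 9.79% in the overexpression. The direction of a call is the sign of the mean over times, while the test is over the whole time profile. Of the other NADPH oxidase family genes and subunits, 7 of 12 were tested, and Cyba, the membrane partner subunit of several NADPH oxidases, was the 1 gene that passed in the rescue (-0.14 ± 0.10, edgeR adjusted p = 1.97e-04). The median over this list was -0.14 in the rescue and 0.00 in the overexpression, against -0.01 and 0.00 over all genes. Of 6 tested heme peroxidase and thyroid hormone synthesis genes, Epx, the eosinophil peroxidase, rose in the rescue (1.28 ± 0.17, edgeR adjusted p = 1.95e-08) and the overexpression (1.85 ± 0.24, edgeR adjusted p = 1.00e-08), and the others did not pass. Of 12 genes that remove hydrogen peroxide, 3 passed upward in the rescue, among them Prdx1 (0.29 ± 0.04, edgeR adjusted p = 3.77e-07), and 1 downward. Prdx1 also rose in the overexpression (0.24 ± 0.04, edgeR adjusted p = 2.80e-05), where Prdx2 was the 1 gene that passed downward (-0.09).

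Of 8 tested SHB family adaptors and PDGF signalling genes, Pdgfa, a ligand of PDGF receptors, fell in the rescue (-0.28 ± 0.04, edgeR adjusted p = 1.38e-07) and in the overexpression (-0.19 ± 0.04, edgeR adjusted p = 0.00776), and was the 1 gene of the list that passed in each. Of 6 tested polyol and fructose genes, Akr1b8 passed upward in the rescue (0.19 ± 0.08, edgeR adjusted p = 0.00117) and downward in the overexpression (-0.28 ± 0.08, edgeR adjusted p = 6.94e-04). Akr1b3, aldose reductase, passed in both, with a mean of -0.14 ± 0.03 in the overexpression but of -0.01 ± 0.03, within its SE of 0, in the rescue, and Khk, ketohexokinase, fell in the rescue (-0.55 ± 0.16, edgeR adjusted p = 0.038). Of 6 nucleoside transporters, Slc29a3, an equilibrative transporter, rose in the rescue (0.81 ± 0.04, edgeR adjusted p = 1.85e-23) and in the overexpression (0.89 ± 0.05, edgeR adjusted p = 2.41e-25), and the other 5 did not pass.

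Trophoblast markers were the list of other cell types with the most genes passing in the long rescue, where 5.57% of all genes passed upward and 5.95% downward. In the long overexpression 4.24% of all genes passed upward and 5.56% downward. Of 9 trophoblast markers 6 passed upward and 1 downward in the rescue, and 3 upward in the overexpression. Their summed level after 0 min was 42.2 to 129 TPM in the KO transgene line and 36.6 to 70.8 TPM in the KO control, and 39.7 to 63.5 TPM in the WT transgene line and 40.6 to 58.9 TPM in the WT control. In the short course, where Shf and Duox1 rose, the sums after 0 min were 35.0 to 41.6 TPM in the KO transgene line and 32.5 to 38.7 TPM in the KO control. Of 10 ES cell markers 1 passed upward and 6 downward in the long rescue, with a median of -0.12. The airway and barrier epithelium list had 1 of 6 tested genes passing in the long rescue, Elf3 with a mean of 0.01 ± 0.04, and 2 in the overexpression. Of 7 tested primitive endoderm markers 2 passed upward and 1 downward in the long rescue, and 0 of 3 tested fibroblast or feeder markers (median 0.16) and 0 of 3 tested thyroid markers (median -0.14) passed in edgeR. The part of these markers in the long-course values of the 7 genes was not tested.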

How the data were processed

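RNA-seq of mouse ES cells was analysed from gene tables of 156 libraries in 68 groups. The submitters' processing notes name Salmon 1.5.2 and mm10, and the deposited expected counts (76.0% of values whole) were rounded for every test. The deposited TPM values, named so in the file headers and summing to 924452 to 947484 per library, served to give levels, since they correct for transcript length. How transcripts were summed to genes is not given in the sources used here, and log2 fold changes and CPM were computed here from the counts, not taken from the authors.

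Each course was fitted alone with edgeR 4.0.16 (R 4.3.3): filterByExpr (minimum count 10), TMM, robust quasi-likelihood F tests, Benjamini-Hochberg adjustment across every gene tested, called at 0.05. This kept 17565 genes with 4 of the 7 in the long course and 18009 genes with 3 of the 7 in the short course. The long fit had 1 coefficient per line and time. Short-course responses used a spline of time with 3 df per line, and single times 1 coefficient per line and time. The fold change of a joint test is the mean over the times after 0 min, and its SE is its size over the square root of F. Direction was counted per library against the 0 min means and the control mean of its time. The scripts were tested on simulated data. Replicates were numbered in the labels, but nothing says whether they were separate cultures, so p-values measure the spread between these samples, which may be technical. No 2 libraries were identical (108 replicate pairs compared). Gene positions came from GENCODE M21, start-site windows from RefSeq. Alternatives were DESeq2 1.42.0, RLE scaling, no filter, a replicate block, the compared lines alone, all 11 short times jointly, and leaving out each replicate. In the short course, leaving out a replicate left 1 library per group. Spline tests lost it in all lines. Single times, and the controls compared over all times, lost it in the compared lines alone. Contrasts at 0 min lost it at 0 min of the compared lines alone. The 7 genes and the gene lists were chosen with earlier results of these data known. The text names the 7 genes, Firre, the 5 genes with the highest Pearson r to Shf and to Duox1 over the long groups (mean CPM of at least 1, no provisional symbols, none of the 7), at most 3 passing genes of each list by smallest adjusted p, and the passing genes within 500 kb.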

Additional observations from a re-analysis of the deposited data

Results flagged for a closer look

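Sord responded more strongly in the KO than in the WT background of the long course, and this was picked out because the difference itself passed its test. The rescue exceeded the overexpression response by 0.26 ± 0.10 on the log2 scale (edgeR adjusted p = 0.00342), with the rescue at 0.51 ± 0.07 and the overexpression response at 0.25 ± 0.07. The direction was shown by 12 of 12 libraries in each response. The same difference in the short course was 0.12 ± 0.10 (edgeR adjusted p = 0.701). Without replicate 2 the long-course difference was 0.16 (edgeR adjusted p = 0.0517) and without replicate 3 it was 0.31 (edgeR adjusted p = 0.255).

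The Duox1 responses of the short course were picked out for the same reason. The means of rescue and overexpression differ by only 0.10 ± 0.62, and the test (edgeR adjusted p = 0.00864) is over the whole time profile, with a larger rescue at 60 min and a smaller one at 300 min. In the long course, on which Duox1 was picked, the responses differed by -1.28 ± 0.49, given with no test.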

How the results depend on the processing

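Of 28 counts of passing genes or times, 173 of 199 values under the alternatives stayed within 1.5 times the first one. Of 71 single-gene values, 441 of 493 were kept under the alternatives. For Shf and Duox1 in the long rescue and overexpression, which have no test, kept means the same direction and a move below the replicate SD. For the others it means the same direction and side of the threshold. Of the 71, 8 are exact permutation comparisons of the sparse genes, added after their values were seen, and no call is drawn from them. For Shf and Duox1 in the short rescue and overexpression every alternative kept both, apart from DESeq2, which gave no adjusted p for Duox1 in the rescue (unadjusted p = 1.42e-19). The replicate block changed no call: with it the Shf rescue of the long course was 2.20 and 1 neighbour passed there. The numbers do not pair the samples, since correlations of same-numbered deviations were -0.06 to 0.08 over 30 pairs and -0.10 to 0.08 over 48 pairs.

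Counts of genes passing moved as follows. WT transgene line against WT control at 0 min, long course, had 0 with DESeq2, 0 with no filter, 0 with the compared lines alone and 0 to 0 when a replicate was left out, against 1. Rescue minus overexpression in the short course had 0 jointly over 11 times, against 1, and DESeq2 gave no adjusted p for Duox1 there (unadjusted p = 1.94e-06). The KO control over the short course had 1 jointly over 11 times, against 2, and the WT control had 1 with no filter and 1 with the compared lines alone, against 0. Leaving out a replicate gave 0 to 1 for the KO transgene line against KO control at 0 min, for neighbours in the overexpression and for rescue minus overexpression, all long, and 1 to 2 for the WT control over the long course. For the short course it gave 0 to 0 for KO against WT control at 0 min, 0 to 1 for rescue minus overexpression and 1 to 1 for the KO control. Times passing became 0 to 2 for Sord in the long overexpression, 4 to 4 for Duox1 in the short rescue and 3 to 5 in the short overexpression.

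Signs turned mostly in values that did not pass. Shf in rescue minus overexpression, long, was 0.00 with no filter and -0.15 to 0.21 without a replicate. Shf over time in the short WT control was 0.01 with DESeq2, 0.01 with the compared lines alone and -0.06 to 0.08 without a replicate. All of these are means read from the fitted spline, while the first value, -0.08, came from a fit of each time, so they are unlike measures. Without a replicate, KO against WT control at 0 min ranged over -0.47 to 0.04 (long) and -0.03 to 0.73 (short) for Duox1. KO transgene line against KO control at 0 min, long, ranged over -0.04 to 0.65 for Duox1 and -0.42 to 0.56 for Duoxa1. WT transgene line against WT control at 0 min ranged over -0.22 to 0.08 for Shf and -0.36 to 0.05 for Duox1 in the long course, and -0.05 to 0.23 for Shf in the short course. Sord in the short overexpression ranged over -0.06 to 0.03, and Duoxa2 in the WT lines after 0 min over -0.011 to 0.0319 CPM. Of values that passed, Duox1 in rescue minus overexpression, short, ranged over -0.36 to 0.61 and Duox1 over time in the short KO control over -0.20 to 0.54. For both, and for Sord in the short overexpression, the mean without a replicate is read from the spline, unlike the first value. The change of measure and the loss of a replicate cannot be told apart there. The cause was not tested.

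Counts over all genes moved too: the long rescue had 2024 calls and 742 to 1271 without a replicate, and the long overexpression 1720 and 297 to 1658. The short rescue had 328 calls and 52 to 1131 over the alternatives, and the short overexpression 126 and 46 to 799. The short difference of responses had 3 calls, 91 with DESeq2 and 564 with no filter, and the long one 934 and 233 to 880 without a replicate. The 0 min contrast of the KO lines had 622 calls in the long course, 248 to 319 without a replicate, and 29 in the short course, 0 to 261. That of the WT lines had 2312 and 1090 to 1455 in the long, 528 and 51 to 869 in the short course. KO against WT control at 0 min, short, had 1353 and 227 without replicate 1. The short KO control had 2390 and 791 to 2731, the short WT control 3918 and 2021 to 4173. Depth limits Duox1 at 0 min, with 6 to 21 counts per library, and the 4 sparse genes at all times.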
